A study of Mus musculus with 22 samples.

Results

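A set of 10 transcription factor genes used to read dorsoventral position in the developing spinal cord (Msx1, Pax3, Pax7, Pax6, Irx3, Irx5, Dbx1, Dbx2, Nkx6-1 and Olig2) were followed through a single-cell time course of mouse gastruloids. They were picked by symbol from the gene lists of the deposited matrices. All 10 of 10 were found among the 32285 genes measured. Each was described across the 8 cluster names of the authors that contain neurectoderm, spinal cord, neuron or somite, and across days 3 to 5. Gastruloids are aggregates of embryonic stem cells that elongate in culture and form cells resembling those of the trunk of the embryo. Here all were wild-type E14Tg2A mouse embryonic stem cells, aggregated at 300 cells per well and given 3 µM of the Wnt pathway activator CHIR99021 at 48 h, and the groups differed only in day and in experiment. A first experiment read pooled day 3 and day 4 gastruloids without marking individuals. The other 3 experiments used MULTI-seq, in which a lipid-anchored barcode marks the cells of each gastruloid: MULTI-seq 1 held day 5, MULTI-seq 2 is used here for days 4 and 4.5, and MULTI-seq 3 held days 3 to 5. In MULTI-seq 3, day 3, days 3.5 and 4, and days 4.5 and 5 were separate pools. All samples come from 1 cell line, and the labels do not say which gastruloids shared a culture, so the spread given is that between aggregates.

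In the embryo the neural tube is patterned along its dorsoventral axis by Sonic hedgehog from the notochord and floor plate and by BMP and Wnt ligands from the roof plate. Progenitors answer with transcription factors that repress each other in pairs across domain borders, so that each domain is read by a combination: Msx1, Pax3 and Pax7 dorsally, Dbx1, Dbx2, Pax6, Irx3 and Irx5 across the intermediate region, Nkx6-1 ventrally and Olig2 in motor neuron progenitors. Several of these genes have other roles, Pax3 and Pax7 in the dermomyotome of somites and Msx1 in the primitive streak and posterior mesoderm.

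The authors' final set held 77674 cells from 18 lanes, of which 53730 were called to 1 of 136 gastruloids. The 8 names held 30620 of the final cells and 23242 of the called ones, and Late Spinal Cord, the name on which most results turned, held 4806 called cells from 78 gastruloids. Lanes held between 64703013 and 307883815 unique molecular identifiers (UMIs, 1 per captured transcript), with a median of 8287 to 38443 per cell. Between 0 and 51 cell barcodes occurred in more than 1 lane of a pool, and up to 18.8% of the final cells of a lane carried a MULTI-seq doublet call in the authors' table; these enter no value by gastruloid. Levels are CPM (counts per 1000000 UMIs), from UMIs summed per gastruloid and name over lanes, for gastruloids with at least 10 cells of that name. The assay reads transcript ends and is not scaled by gene length, so levels are compared between groups and never between genes. The names were made by the authors from the same expression values, so differences between names are descriptions without a test. Sox1, Sox2, Sox3 and Hes5, the neural progenitor markers, summed to 519 to 851 CPM in the day 5 Late Spinal Cord of MULTI-seq 3 and to 394 to 931 CPM in that of MULTI-seq 1. The Hox9 and Hoxc8 trunk markers summed to 574 to 727 CPM and 596 to 853 CPM there, while the forebrain and midbrain list reached at most 1.38 CPM and 2.47 CPM, with Six3 at 0 in both. By the embryo reference mapping of the authors, 42.5% of these cells of MULTI-seq 1 mapped to Spinal cord progenitors, 13.4% to Ectoderm and 11% to Dorsal spinal cord progenitors. A further 7.06% mapped to Ventral hindbrain progenitors, 6.45% to Optic vesicle, 4.10% to Hindbrain neural progenitors and 1.09% to Neural tube. In MULTI-seq 3 the shares of the first 3 types were 47.0%, 3.53% and 13.2%. Those of the other 4 were 2.91%, 0.334%, 4.43% and 20.4%. Meox1, a somite marker, stood at 483 ± 60.6 CPM in Mature Somites and 2.95 CPM in Late Spinal Cord of MULTI-seq 3 at day 5.

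At day 5 the 10 genes fell into separate patterns over the names. Pax3 was highest in Mature Somites, Msx1 in Early Spinal Cord, and Irx3, Dbx1, Dbx2 and Nkx6-1 in Late Spinal Cord, while Pax6 and Irx5 were high in both Late Spinal Cord and Late Neurectoderm. Olig2 reached at most 1.57 CPM and Pax7 at most 7.42 CPM as a mean in any name with at least 3 gastruloids at day 5. Neurons had too few cells for a value by gastruloid and are described separately.

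**Figure D1:**
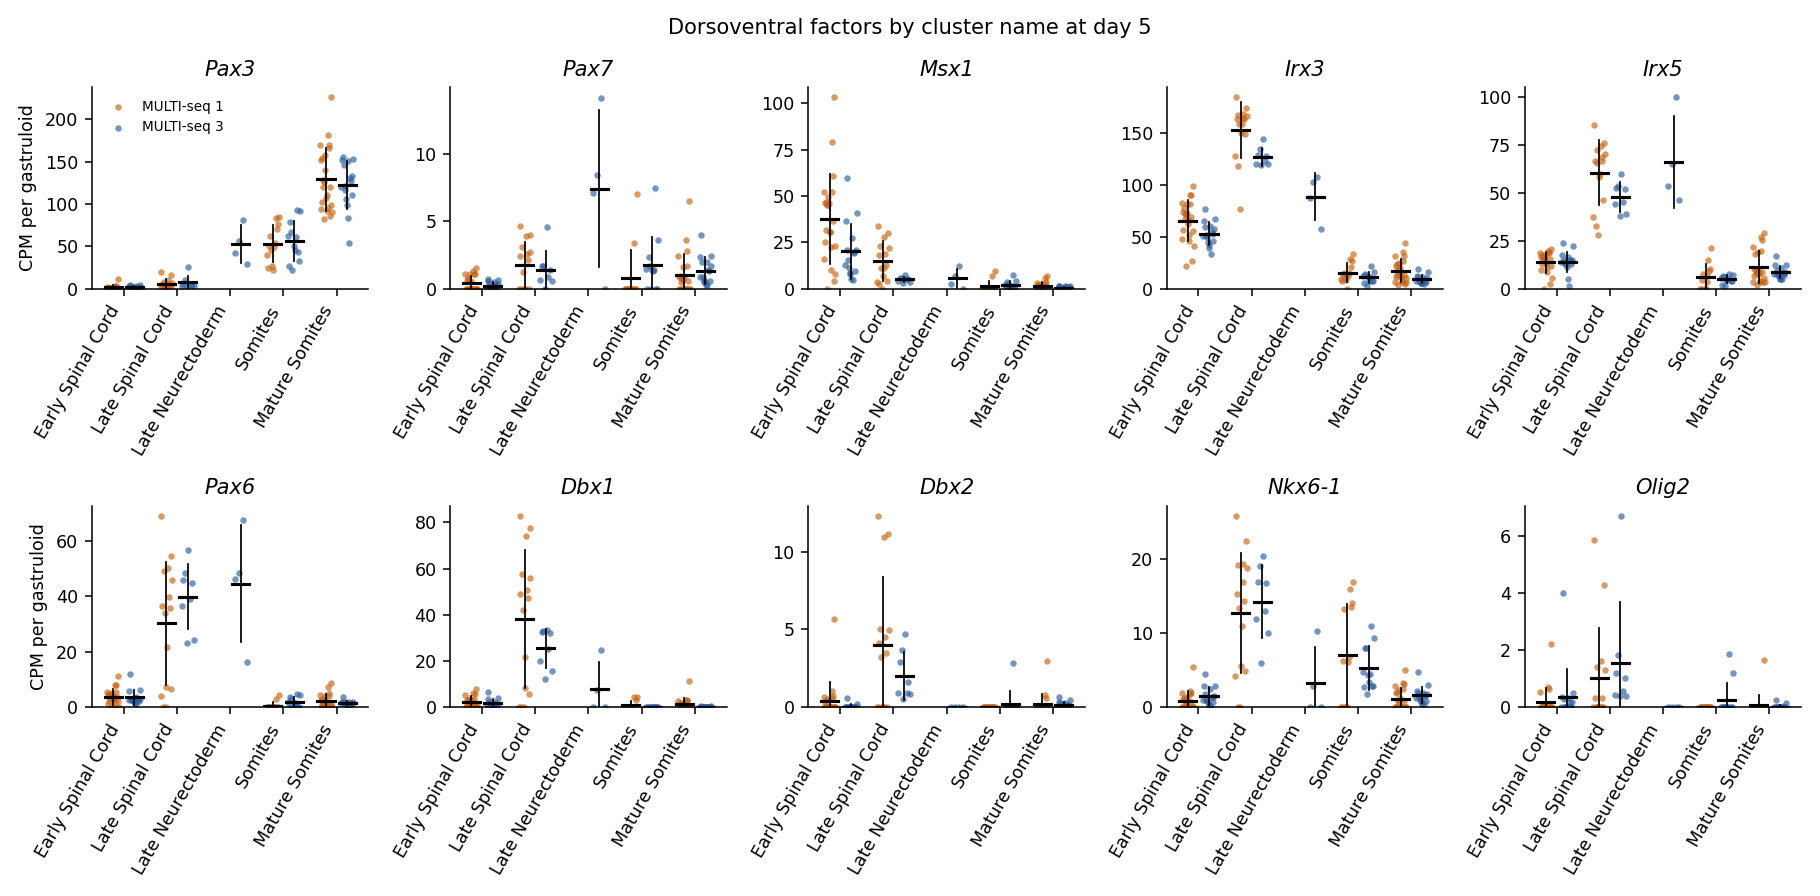
Level of each of the 10 genes at day 5 in CPM (vertical axes) by cluster name (horizontal axes), 1 point per gastruloid, with bars at the mean ± SD and colours for MULTI-seq 1 and MULTI-seq 3. Pax3 is highest in Mature Somites, Msx1 in Early Spinal Cord, and Irx3 and Dbx1 in Late Spinal Cord, where the Dbx1 points of MULTI-seq 1 reach from 0 to 82.8 CPM.

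Of the dorsal genes, Msx1, a homeobox gene induced by BMP signalling, was detected in Early Spinal Cord cells at each day from 3.5 to 5. In MULTI-seq 3 its level there was 30.3 ± 10.3 CPM at day 3.5 (SD, n = 10 gastruloids), 27.7 ± 17.2 CPM at day 4 (n = 5), 23.8 ± 12.5 CPM at day 4.5 (n = 15) and 20.1 ± 14.8 CPM at day 5 (n = 16). Neighbouring days in that series overlapped within their spread. In MULTI-seq 1 at day 5 the 23 gastruloids ranged from 0 to 103 CPM around a median of 36.3 CPM. Late Spinal Cord at day 5 was lower, at 5.12 ± 1.37 CPM in MULTI-seq 3 (n = 8) and 15.1 ± 10.7 CPM in MULTI-seq 1 (n = 15). Within a gastruloid at day 5, Msx1 was lower in Late than in Early Spinal Cord in 7 of 8 cases of MULTI-seq 3 and in 12 of 15 of MULTI-seq 1, and at day 4.5 of MULTI-seq 3 in 6 of 7. The order was the opposite in 2 groups. At day 4.5 of MULTI-seq 2 Msx1 was higher in Late Spinal Cord in 5 of 5 gastruloids (means of 22.9 and 13.3 CPM), and at day 3.5 of MULTI-seq 3 in 3 of 3 (60.8 and 30.8 CPM). Somite names held 0.388 to 2.3 CPM.

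Msx1 was not a neural transcript alone in these aggregates. Several names of other lineages, though not the somite names, held levels above those of Early Spinal Cord: 93.1 ± 49.2 CPM in Anterior Primitive Streak at day 3 (n = 4), 81.6 ± 29.5 CPM in Early Nascent Mesoderm at day 3.5 (n = 6) and 69.5 ± 24.3 CPM in Notochord at day 5 (n = 3), all in MULTI-seq 3. NMPs, the name the authors gave to neuromesodermal progenitors, held 51.6 ± 22.1 CPM at day 5 (n = 16), and Early Spinal Cord was below NMPs in 14 of the 16 gastruloids. By the authors' mapping to an embryo reference, 41.8% of the Early Spinal Cord cells of that group were themselves most like neuromesodermal progenitors and 33.9% most like spinal cord progenitors.

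Pax3, a paired-box factor of dorsal neural progenitors and of the dermomyotome, was first of all a somite transcript. In Mature Somites it stood at 80.4 ± 18.1 CPM at day 4 (n = 7), 131 ± 17.5 CPM at day 4.5 (n = 13) and 123 ± 28.1 CPM at day 5 (n = 16) of MULTI-seq 3, and at 129 ± 37.5 CPM in MULTI-seq 1 (n = 23). It was higher in Mature Somites than in Somites in 12 of 12 day 5 gastruloids of MULTI-seq 3 and 13 of 13 of MULTI-seq 1. Among the progenitor names it was highest in Late Neurectoderm, at 35.5 ± 18.9 CPM at day 4.5 (n = 3) and 52.4 ± 22.5 CPM at day 5 (n = 4) of MULTI-seq 3, with individual day 5 gastruloids from 28.7 to 81.4 CPM. Late Spinal Cord held 7.51 ± 7.68 CPM at day 5 in MULTI-seq 3, where 1 gastruloid at 25.6 CPM stood above a median of 4.81 CPM, and 6.11 ± 5.67 CPM in MULTI-seq 1. It was lower there than in the Mature Somites of the same gastruloid in 8 of 8 cases. Early Spinal Cord held 1.85 ± 1.57 CPM at day 5 in MULTI-seq 3.

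Pax7, the close relative of Pax3, was low in the same names. Late Neurectoderm held 12.7 ± 7.3 CPM at day 4.5 in MULTI-seq 2 (n = 3) and 7.42 ± 5.82 CPM at day 5 in MULTI-seq 3 (n = 4), where single gastruloids reached from 0 to 14.2 CPM. Late Spinal Cord was at 1.42 ± 1.4 CPM in MULTI-seq 3 and 1.79 ± 1.7 CPM in MULTI-seq 1 at day 5, and Mature Somites at 1.35 ± 1.0 CPM in MULTI-seq 3. Within a gastruloid at day 5, Pax7 was lower in Late Spinal Cord than in Mature Somites in 7 of 8 cases of MULTI-seq 3, but in 5 of 14 of MULTI-seq 1, where it was higher in 6 and tied in 3.

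Among the intermediate genes, Irx3 and Irx5, Iroquois homeobox genes that lie in 1 cluster on chromosome 8, were detected at the earliest days and in both lineages. In Late Spinal Cord Irx3 stood at 63.7 ± 18.5 CPM at day 3.5 (n = 3), 123 ± 10.8 CPM at day 4.5 (n = 7) and 127 ± 8.69 CPM at day 5 (n = 8) in MULTI-seq 3, and at 153 ± 27 CPM in MULTI-seq 1 (n = 15). Its mean in Early Spinal Cord of MULTI-seq 3 was 14.6 CPM at day 3.5, 17.9 CPM at day 4, 40.0 CPM at day 4.5 and 53.2 CPM at day 5. Day 3.5 and day 4 overlapped within their spread there, and the 16 day 5 gastruloids lay between 33.1 and 76.5 CPM. Late exceeded Early Spinal Cord in 8 of 8 gastruloids of MULTI-seq 3 and in 15 of 15 of MULTI-seq 1, for Irx3 and for Irx5 alike.

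In Mature Somites the order of days was the opposite. Irx3 there had a mean of 72.1 ± 14.1 CPM at day 4 (n = 7), 22 ± 8.56 CPM at day 4.5 (n = 13) and 9.11 ± 3.95 CPM at day 5 (n = 16), and Irx5 had 73.3 ± 16.9 CPM, 20.2 ± 10.2 CPM and 8.73 ± 3.2 CPM at those days. The day 4 gastruloids, from 46.7 to 86.0 CPM for Irx3, did not overlap those of day 4.5, from 10.8 to 38.5 CPM, but the 2 ages came from different pools and their difference was not tested. In MULTI-seq 2, whose days 4 and 4.5 shared a pool, the step was smaller and the ranges overlapped: Irx3 went from 44.2 ± 17.5 CPM (n = 4) to 32.0 ± 12.5 CPM (n = 8), and Irx5 from 56.0 ± 20.5 to 41.6 ± 23.9 CPM. Irx5 in Late Spinal Cord stood at 55.5 ± 6.76 CPM at day 4.5 and 47.9 ± 7.77 CPM at day 5, and in Late Neurectoderm at 66.1 ± 23.9 CPM at day 5. The highest Irx5 levels outside these names were in Head Mesoderm, at 106 ± 25.6 CPM at day 4 of MULTI-seq 3 (n = 7).

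**Figure D2:**
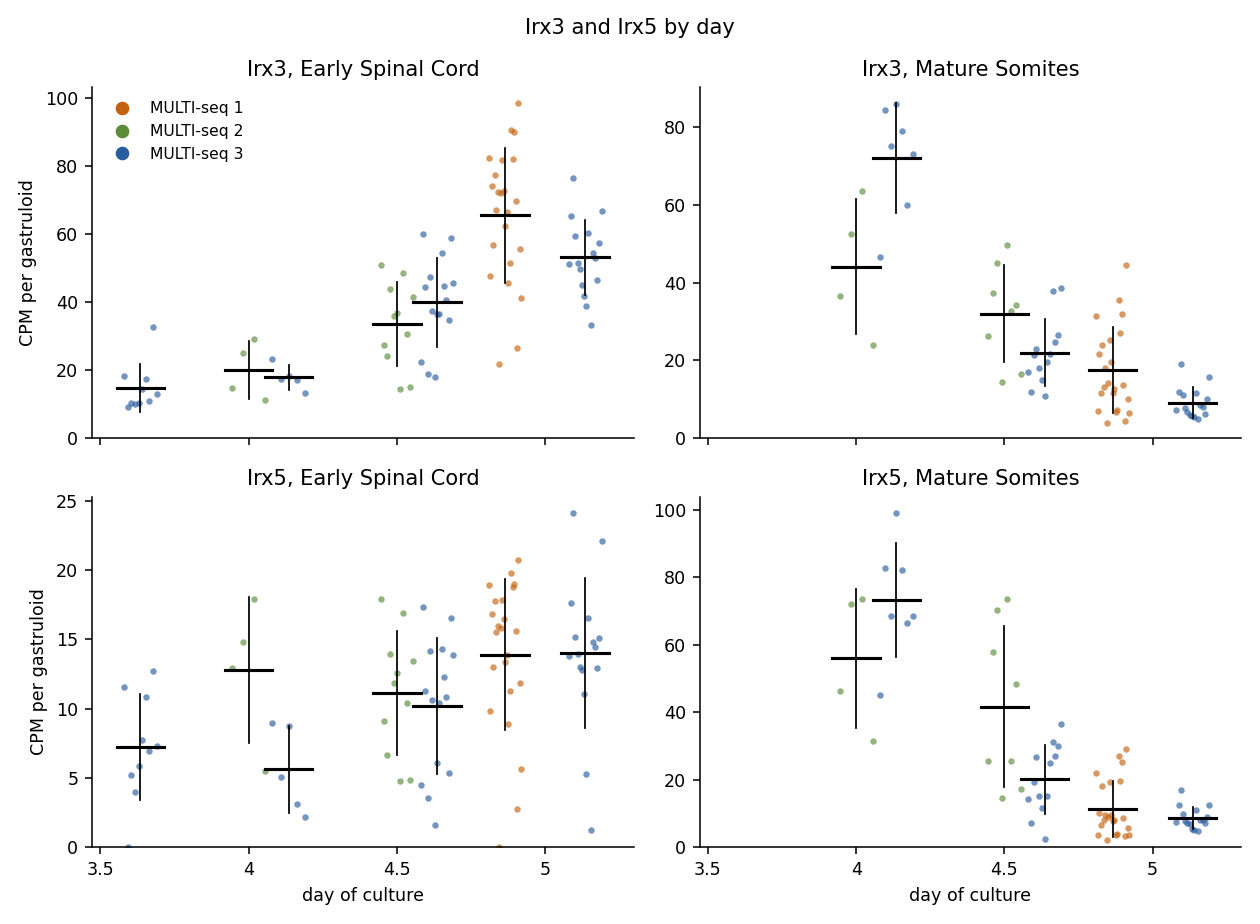
Irx3 and Irx5 in CPM (vertical axes) by day (horizontal axes) in spinal cord and somite names, 1 point per gastruloid, bars at the mean ± SD, experiments in colours and offset sideways around each day. In MULTI-seq 3 Irx3 has higher means at later days in Early Spinal Cord (14.6 CPM at day 3.5, 53.2 CPM at day 5) and lower ones in Mature Somites (72.1 CPM at day 4, 9.11 CPM at day 5).

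Among the described names, Pax6, a paired-box factor of intermediate and ventral progenitors, had its highest day 5 means in the late neural ones. Late Spinal Cord held 7.08 ± 4.44 CPM at day 3.5 (n = 3), 27.2 ± 12.5 CPM at day 4.5 (n = 7) and 39.9 ± 11.6 CPM at day 5 (n = 8) of MULTI-seq 3, and 17.4 ± 4.58 CPM at day 4.5 of MULTI-seq 2 (n = 5). Late Neurectoderm held 44.5 ± 21 CPM at day 5, inside the spread of Late Spinal Cord. Its 3 gastruloids of MULTI-seq 2 at day 4.5 gave 10.7, 23.5 and 173 CPM for Pax6, so 1 of them set the mean. Early Spinal Cord means lay between 0.708 and 3.74 CPM, and somite names between 0.579 and 3.96 CPM. NMPs held 6.32 CPM at day 5 of MULTI-seq 1, above Early Spinal Cord in 16 of 21 gastruloids and below it in 5.

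Dbx1, a homeobox gene of the progenitors next to the midline between dorsal and ventral domains, appeared late. It had no UMI in Early Neurectoderm at day 3 (0 of 21985061 UMIs, which allows up to 0.136 CPM) or in Early Spinal Cord at day 3.5 (allowing up to 0.245 CPM) and day 4 (up to 0.27 CPM) of MULTI-seq 3. These 1-sided limits take 3 counts as the bound for 0. Late Spinal Cord held 1 UMI in 3 gastruloids at day 3.5. At day 4.5 its level there was 21.1 ± 7.89 CPM in MULTI-seq 3 (n = 7) and 12.4 ± 5.34 CPM in MULTI-seq 2 (n = 5), and at day 5 it was 25.6 ± 8.48 CPM in MULTI-seq 3 (n = 8). In Late Neurectoderm of MULTI-seq 3 Dbx1 ranged from 0 to 31.7 CPM over 3 gastruloids at day 4.5.

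At day 5 Dbx1 was higher in Late than in Early Spinal Cord in 8 of 8 gastruloids of MULTI-seq 3 and 12 of 15 of MULTI-seq 1, while Msx1 was lower in most of them, and the stretches around the start sites of these 2 genes are shown as examples of members with opposite order at that day. They run from 250 bases before to 50 bases after the RefSeq start in GRCm38.p6, both on the minus strand, written 5′ to 3′: chr7:49636786-49637085 for Dbx1 and chr5:37824536-37824835 for Msx1. Capitals mark matches to CCAAT and TATAAA, searched on both strands, so that ATTGG in capitals is CCAAT read on the other strand and the motifs do not overlap each other.
Dbx1: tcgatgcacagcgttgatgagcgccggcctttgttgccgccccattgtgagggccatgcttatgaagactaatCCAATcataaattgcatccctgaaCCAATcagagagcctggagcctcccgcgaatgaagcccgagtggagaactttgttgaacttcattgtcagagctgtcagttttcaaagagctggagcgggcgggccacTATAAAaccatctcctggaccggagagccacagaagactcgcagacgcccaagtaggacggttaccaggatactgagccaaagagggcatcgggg
Msx1: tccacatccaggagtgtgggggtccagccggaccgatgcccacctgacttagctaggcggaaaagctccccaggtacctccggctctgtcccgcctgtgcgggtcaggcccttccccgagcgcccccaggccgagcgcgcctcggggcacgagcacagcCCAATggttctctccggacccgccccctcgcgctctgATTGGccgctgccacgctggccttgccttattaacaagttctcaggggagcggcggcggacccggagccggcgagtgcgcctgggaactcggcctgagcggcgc
Dbx1 held 2 CCAAT and 1 TATAAA, and Msx1 held 2 CCAAT and no TATAAA. The CCAAT motif occurred in 37.4% and TATAAA in 13.6% of the 32851 promoters of the same length, so neither is unusual, and no readout of promoter activity was part of the data. Promoter entries were matched for 8 of the 10 members, in 9 entries, of which 4 held CCAAT and 2 held TATAAA. GC content was 54.0% for Dbx1 and 70.0% for Msx1. In GENCODE vM21 (GRCm38), Dbx1 lies at chr7:49631499-49636849 and Msx1 at chr5:37820485-37824583, both on the minus strand, so each window covers the annotated start.

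Dbx2, which overlaps Dbx1 in the embryo and extends to either side of it, was scarce throughout: 3.98 ± 4.36 CPM in Late Spinal Cord of MULTI-seq 1 and 2.03 ± 1.55 CPM in that of MULTI-seq 3 at day 5, and at most 2.26 CPM in any other group with values by gastruloid. It was higher in Late than in Early Spinal Cord in 8 of 8 gastruloids of MULTI-seq 3, and in MULTI-seq 1 it was higher in 9, lower in 4 and tied in 2.

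Of the ventral genes, Nkx6-1, a homeobox repressor expressed in ventral progenitors, was measured in both spinal cord and somite names. Late Spinal Cord held 10.0 ± 6.57 CPM at day 4.5 (n = 7) and 14.3 ± 4.89 CPM at day 5 (n = 8) of MULTI-seq 3, and 12.7 ± 8.12 CPM in MULTI-seq 1 (n = 15). Early Spinal Cord means were 0.189 to 1.49 CPM, and Late exceeded Early in 8 of 8 gastruloids of MULTI-seq 3 and in 13 of 15 of MULTI-seq 1, with none the other way. Somites held 10.0 ± 5.18 CPM at day 4.5 and 5.29 ± 3.0 CPM at day 5 of MULTI-seq 3, above Mature Somites in 12 of 12 day 5 gastruloids. In MULTI-seq 1 the same order held in 8 of 13 and the opposite in 3. Notochord held 13 ± 10.3 CPM of Nkx6-1 at day 5 (n = 3), and Mature Endoderm 8.81 ± 8.31 CPM (n = 9).

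Olig2, the factor that marks motor neuron progenitors and later oligodendrocyte precursors, was near the limit of detection in progenitors. Late Spinal Cord at day 5 held 1.57 ± 2.13 CPM in MULTI-seq 3, from 0.388 to 6.68 CPM over 8 gastruloids, and 1.01 ± 1.77 CPM in MULTI-seq 1, where the median of 15 gastruloids was 0. In Early Spinal Cord at day 4.5 the 15 gastruloids of MULTI-seq 3 held 1 UMI of Olig2 in 33758495.

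Changes between days could be tested within a name where both days shared a pool and had at least 6 gastruloids, which left day 5 against day 4.5 of MULTI-seq 3. Earlier days, and Late Neurectoderm at any day, had too few gastruloids for a test. UMI sums were fitted over all genes with edgeR's quasi-likelihood test, and a gene was called at a Benjamini-Hochberg adjusted p under 0.05. Members with too few counts were not fitted: 3 of 10 were tested in Early Spinal Cord, 7 in Late Spinal Cord, 1 in Somites and 3 in Mature Somites. A sum over cells combines the share of cells with a transcript and the amount per cell, and these fits did not separate them.

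In Mature Somites Irx3 and Irx5 fell together. Irx3 ranged from 10.8 to 38.5 CPM over 13 gastruloids at day 4.5 and from 4.91 to 18.95 CPM over 16 at day 5, with medians of 21.4 and 7.95 CPM. All 16 day 5 gastruloids were below the day 4.5 median although the ranges overlapped. The log2 fold change was -1.40 (SE 0.17, adjusted p = 1.43e-07). Irx5 ranged from 2.5 to 36.6 CPM at day 4.5 and from 4.98 to 16.9 CPM at day 5, again with 16 of 16 below the earlier median, and its log2 fold change was -1.40 (SE 0.17, adjusted p = 1.95e-07, edgeR's quasi-likelihood test). Pax3 gave a log2 fold change of -0.13 (adjusted p = 0.51). Thus 2 of 3 tested members were called, both lower, against 14% of all 10019 genes in either direction, and the median change of the 3 was -1.40 against 0.00 over all genes.

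Irx3 rose in Early Spinal Cord. Its gastruloids ranged from 17.9 to 59.9 CPM at day 4.5 and from 33.1 to 76.5 CPM at day 5, with medians of 40.7 and 52.3 CPM, and 14 of 16 day 5 gastruloids lay above the earlier median. The log2 fold change was 0.40 (SE 0.11, adjusted p = 0.0118, edgeR's quasi-likelihood test). Irx5 at 0.35 (SE 0.17, adjusted p = 0.185) and Msx1 at -0.48 (SE 0.27, adjusted p = 0.28) did not pass. This made 1 of 3 members called, against 12.4% of all genes, and the call for Irx3 was lost when lane B of the pool was left out (log2 fold change 0.35, adjusted p = 0.0581).

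In Late Spinal Cord Msx1 fell, from a range of 3.42 to 20.5 CPM in 7 gastruloids at day 4.5 to 3.34 to 7.31 CPM in 8 at day 5. All 8 of the later gastruloids lay below the earlier median of 17.1 CPM. The log2 fold change was -1.12 (SE 0.29, adjusted p = 0.0157), and without lane A of the pool it was -1.04 with an adjusted p of 0.0534 (edgeR's quasi-likelihood test). Pax6 had the next largest difference, with all 8 day 5 gastruloids above the day 4.5 median of 23.1 CPM, at 0.56 (SE 0.20, adjusted p = 0.0822). The remaining tested members, Nkx6-1 (0.45), Dbx1 (0.30), Pax3 (0.31), Irx3 (0.06) and Irx5 (-0.12), had adjusted p between 0.304 and 0.723. So 1 of 7 members was called, against 7.79% of all genes, with a member median of 0.30 against 0.00.

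In Somites only Pax3 had enough counts to be tested. It ranged from 44.5 to 139 CPM in 10 gastruloids at day 4.5 and from 22.1 to 93.0 CPM in 12 at day 5, with 10 of the 12 below the earlier median of 83.5 CPM. The log2 fold change was -0.69 (SE 0.18, adjusted p = 0.0159, edgeR's quasi-likelihood test, 3.6% of all genes called). DESeq2 gave -0.66 with an adjusted p of 0.12, and without lane A of the pool the log2 fold change was -0.62, also short of the threshold, so this call depends on the tool and on 1 lane.

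The difference between lineages was tested in the gastruloids that held both names, as the change in Early Spinal Cord minus the change in Mature Somites on the log2(CPM + 1) scale, by permuting days over 16 and 12 gastruloids. For Irx3 the day 5 minus day 4.5 value was 0.50 in Early Spinal Cord and -1.11 in Mature Somites, a difference of 1.62 (two-sided permutation test with 100000 resamples, p = 1e-05, the smallest they can give, and adjusted p = 0.00019 over 19 such tests). For Irx5 the values were 0.62 and -0.88, a difference of 1.498 (permutation test, adjusted p = 0.0313). For Pax3 the difference was 0.48 and for Msx1 -0.53 (permutation test, adjusted p = 0.408 for each). Those 2 therefore did not pass, which does not show that their changes were equal.

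Gastruloids of 1 age were also compared between experiments, which also differed in depth per cell. The labels name the experiments only by number, and what separates them cannot be told apart. Here a large share of all genes was called: 59.8% in Early Spinal Cord, 48.5% in Late Spinal Cord, 39% in Somites and 54.3% in Mature Somites for MULTI-seq 3 against MULTI-seq 1 at day 5. Against plain CPM, the TMM factors shifted the log2 difference between these experiments by 0.22, 0.24, 0.14 and 0.18 on average in those names. Against that background 1 of 3, 3 of 7, 0 of 1 and 1 of 3 tested members were called, shares near or below those over all genes.

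Msx1 was called in both spinal cord names. In Early Spinal Cord MULTI-seq 3 ranged from 4.89 to 59.8 CPM (median 17.5) and MULTI-seq 1 from 0 to 103 CPM (median 36.3), with 14 of 16 gastruloids of MULTI-seq 3 below the median of MULTI-seq 1. The log2 fold change was -1.04 (SE 0.22, adjusted p = 4.82e-05, edgeR's quasi-likelihood test). In Late Spinal Cord it was -0.91 (SE 0.26, adjusted p = 0.00356), with 8 of 8 below the median.

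Irx5 in Late Spinal Cord differed by -0.24 (SE 0.08, adjusted p = 0.0155) and Irx3 in Mature Somites by -0.72 (SE 0.20, adjusted p = 0.00221), again by edgeR's quasi-likelihood test. The Irx5 call was lost with DESeq2 and without lane 3 of MULTI-seq 1 (-0.19, adjusted p = 0.0894). In Somites, Pax3 gave 0.19 (adjusted p = 0.525, the only member tested there, and not under 0.05 unadjusted, and 0 by DESeq2). At day 4.5, MULTI-seq 3 against MULTI-seq 2, Irx5 in Mature Somites was lower by a log2 fold change of -0.92 (SE 0.23, adjusted p = 0.00209, 13 of 13 gastruloids below the MULTI-seq 2 median). That was 1 of 3 members tested there, against 30.5% of all genes. In Early Spinal Cord 0 of 3 members were called by edgeR, 0 at an unadjusted p under 0.05 and 0 by DESeq2, against 40.8% of all genes.

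For Dbx1 in Late Spinal Cord the direction differed between summaries. MULTI-seq 1 ranged from 0 to 82.8 CPM with a median of 47.1 CPM, and MULTI-seq 3 from 12.4 to 33.4 CPM with a median of 28.7 CPM, so the range of the first enclosed that of the second. edgeR's quasi-likelihood test gave a log2 fold change of -0.78 (SE 0.17, adjusted p = 0.000325), while DESeq2 gave -0.43 with an adjusted p of 0.496. The means over gastruloids, 25.6 CPM in MULTI-seq 3 and 38.2 CPM in MULTI-seq 1, had the sign of both fits. The mean of log2(CPM + 1) over the 8 and 14 gastruloids that also held Mature Somites differed by 0.58, with the opposite sign. The 15 gastruloids of MULTI-seq 1 differed in how many Late Spinal Cord cells they held. In the 6 with 11 to 25 cells, Dbx1 ranged from 0 to 21.9 CPM with a median of 2.81 CPM (5 UMIs in all), and 1 UMI was worth 3.76 to 10.9 CPM. In the 9 with 60 to 245 cells it ranged from 41.9 to 82.8 CPM, with a mean of 59.7 ± 14.8 CPM, without overlap with the small ones or with MULTI-seq 3.

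Pax6 showed the same division by cell number, and Irx3 did not. Pax6 ranged from 0 to 21.9 CPM in the 6 gastruloids of MULTI-seq 1 with few cells and from 33.8 to 69.0 CPM in the 9 with many, again without overlap. Irx3 ranged from 76.5 to 174 CPM in the first and from 149 to 185 CPM in the second, and Msx1 from 0 to 33.8 CPM and 2.34 to 22.9 CPM. Irx5 ranged from 28.1 to 68.7 CPM and from 58.2 to 85.3 CPM, with overlap. Dbx2 and Pax7 had 0 UMIs in the gastruloids with few cells, where 1 UMI was worth 3.76 to 10.9 CPM. In those with many cells Dbx2 ranged from 3.25 to 12.3 CPM and Pax7 from 1.28 to 4.68 CPM. These ranges overlap the worth of 1 UMI in the small gastruloids, so a division cannot be resolved for these 2 genes. Nkx6-1 ranged from 0 to 25.8 CPM with few cells and from 4.93 to 22.4 CPM with many. Pax3 ranged from 0 to 10.9 CPM and from 1.59 to 19.7 CPM, and both overlapped. The division of Dbx1 and Pax6 was seen in the values and was not tested. How many of all genes divide in this way was not counted.

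**Figure D3:**
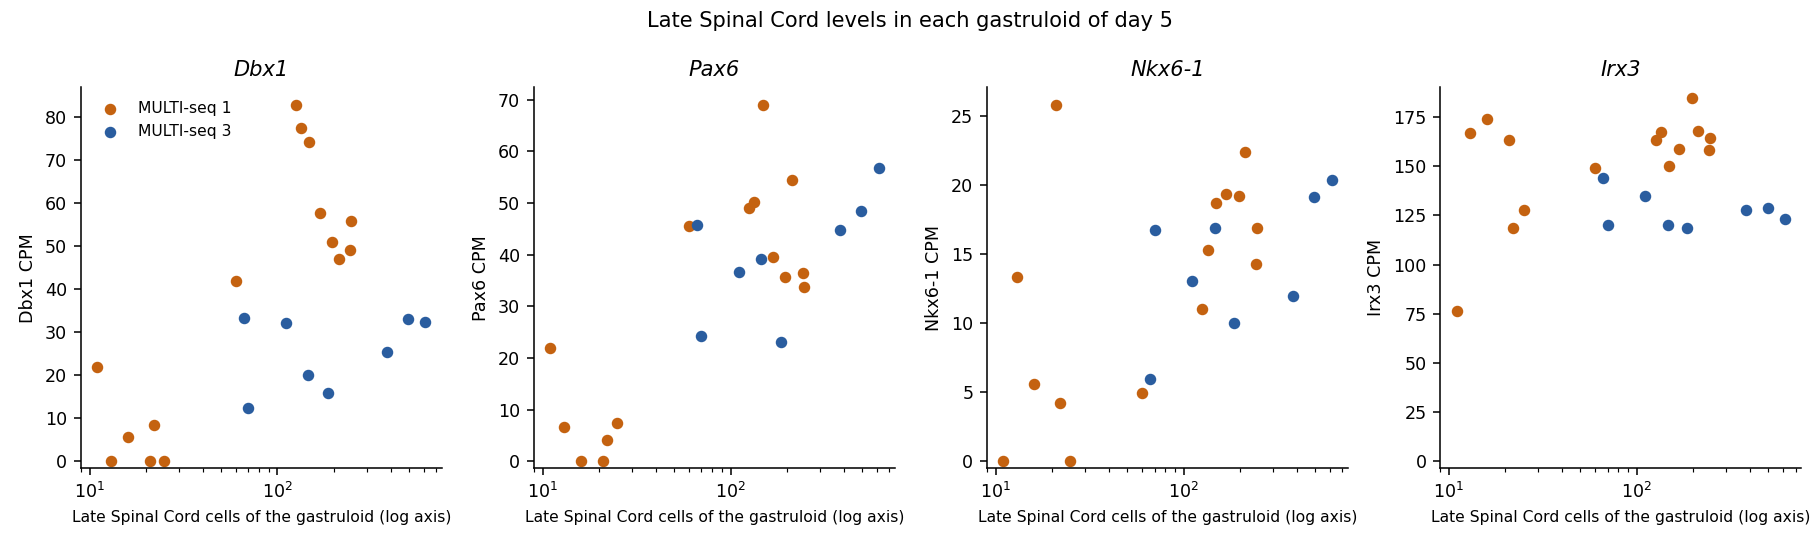
Level in CPM (vertical axes) of members in Late Spinal Cord at day 5 against the number of Late Spinal Cord cells of the gastruloid (horizontal axes, log scale), 1 point per gastruloid, colours for MULTI-seq 1 and MULTI-seq 3. The 6 gastruloids of MULTI-seq 1 with 11 to 25 cells lie at 0 to 21.9 CPM of Dbx1 and the 9 with 60 to 245 cells at 41.9 to 82.8 CPM.

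Domains in the spinal cord are combinations within a cell, so pairs of members were counted in single Late Spinal Cord cells. Every cell was thinned to 5000 UMIs by 1 random draw so that depth was equal. At day 5, 33 shallower cells of MULTI-seq 1 and none of MULTI-seq 3 were left out. At this depth 295 of 1625 cells of MULTI-seq 1 (18.2%) and 215 of 2098 of MULTI-seq 3 (10.2%) held a Dbx1 UMI, against 30.8% and 33.4% without thinning, where the median cell held 11323 and 31399 UMIs. Nkx6-1 was found in 101 cells (6.22%) and 145 cells (6.91%). In Mature Somites of the same experiments at day 5 (medians of 10026 and 24907 UMIs) the shares were 0.852% and 0.125% for Dbx1 and 0.852% and 0.815% for Nkx6-1. Both were above that background in Late Spinal Cord. In Endothelium 0 of 76 cells of MULTI-seq 1 had Dbx1, which allows a share of up to 3.95%, and 0 of 122 of MULTI-seq 3, which allows up to 2.46%. Olig2 was in 8 cells (0.492%) and 15 cells (0.715%) of Late Spinal Cord, against 1 cell of Mature Somites in each experiment. Intervals given for these shares are exact binomial and cover counting error only. The limit given where 0 cells were found is instead 3 divided by the number of cells, a 1-sided 95% limit.

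Dbx1 and Nkx6-1, which mark separate progenitor domains in the embryo, were rarely found in 1 cell. In MULTI-seq 1, 1 of 295 cells with Dbx1 held Nkx6-1 (0.339%, 95% interval 0.00858 to 1.87%), against 100 of 1330 cells without Dbx1 (7.52%, 6.16 to 9.07%). In MULTI-seq 3 at day 5 it was 3 of 215 (1.40%, 0.289 to 4.02%) against 142 of 1883 (7.54%, 6.39 to 8.83%). The intervals do not overlap in either experiment, but they cover counting error over pooled cells and not the spread between gastruloids. By gastruloid, the share was lower in cells with Dbx1 in 8 and higher in 0 of MULTI-seq 1, and lower in 5 and higher in 1 of MULTI-seq 3. At day 4.5 of MULTI-seq 3, 0 of 51 cells with Dbx1 held Nkx6-1, which allows up to 5.88%, against 5.58% of the others, so no difference was detectable at that depth. With cells thinned to 3000 UMIs the contrast was smaller, with 3 of 225 cells (1.33%) against 5.23% in MULTI-seq 1, 3 of 134 (2.24%) against 5.19% in MULTI-seq 3 at day 5, and 1 of 40 (2.5%) against 3.53% at day 4.5. Without thinning the shares were 3.72% against 16.0% in MULTI-seq 1 and 13.3% against 33.6% in MULTI-seq 3 at day 5, lower in 8 gastruloids and higher in 0 in each. At day 4.5 they were 12.3% against 26.7% in MULTI-seq 3 (lower in 7, higher in 0) and 0 of 51 cells against 14.9% in MULTI-seq 2 (lower in 4, higher in 0). Unthinned cells with Dbx1 were the deeper ones at day 5, with medians of 13037 against 10475 and 35191 against 29586 UMIs.

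Pax3 and Nkx6-1, from opposite sides of the neural tube, shared no thinned cell at day 5. In MULTI-seq 1, 0 of 101 cells with Nkx6-1 held Pax3, which allows up to 2.97%, against 2.30% of the others. In MULTI-seq 3 it was 0 of 145, which allows up to 2.07%, against 3.02% (interval 2.31 to 3.88%). That limit is 1-sided and the interval 2-sided, so their ends are not set against each other. Only in MULTI-seq 3 does the limit lie below the share in the other cells. With cells thinned to 3000 UMIs, 0 of 105 cells with Nkx6-1 held Pax3 there, against 1.81% of the others, and the limit lies above that share. Without thinning, 28 of 563 cells with Nkx6-1 held Pax3 in MULTI-seq 3 (4.97%), against 13.8% of the others, lower in 8 gastruloids and higher in 0. The unthinned shares were 4.44% against 15.0% at day 4.5 of MULTI-seq 3 (lower in 6, higher in 0) and 2.48% against 5.15% in MULTI-seq 1 (lower in 5, higher in 1). In MULTI-seq 2 at day 4.5 they went the other way, with 3 of 31 cells (9.68%) against 7.89%.

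Some other pairs gave no such separation. Dbx1 was found in 17 of 44 cells with Dbx2 in MULTI-seq 1 (38.6%, interval 24.4 to 54.5%) against 17.6% of the others (15.7 to 19.6%), and in 4 of 21 in MULTI-seq 3 (19%, 5.45 to 41.9%) against 10.2%, where the intervals overlap. By gastruloid that share was higher in 3 and lower in 2 of MULTI-seq 1 and higher in 1 and lower in 1 of MULTI-seq 3, so at this depth gastruloids gave no common direction. Without thinning it was 57.0% against 29.3% in MULTI-seq 1 (higher in 9, lower in 0) and 56.3% against 31.9% in MULTI-seq 3 at day 5 (higher in 4, lower in 0), where cells with Dbx2 were the deeper ones (medians of 13727 against 11134 and 41031 against 30955 UMIs). Pax6 was found in 17.8% of cells with Nkx6-1 against 16.7% of the others in MULTI-seq 1, and in 21.4% against 16.4% in MULTI-seq 3. By gastruloid it was higher in 4 and lower in 4 of MULTI-seq 1, and higher in 2 and lower in 5 of MULTI-seq 3, against the direction of the pooled share. At day 4.5 of MULTI-seq 3 it was 25.8% against 11.1%, higher in 2 and lower in 0. Without thinning Pax6 was more frequent with Nkx6-1 in each group. It was higher in 8 gastruloids and lower in 0 of MULTI-seq 1, and in 7 and 1 of MULTI-seq 3 at day 5. At day 4.5 these numbers were 7 and 0 of MULTI-seq 3 and 4 and 0 of MULTI-seq 2. Depth was not made equal in those unthinned counts, so they do not show that the 2 genes go together at equal depth. Over the 36 pairs of members that could be counted in MULTI-seq 1, the median ratio of the share with and without the partner was 1.13, and 6 pairs had a ratio under 0.5. In MULTI-seq 3 at day 5 the median over 28 pairs was 1.06, with 5 pairs under 0.5.

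**Figure D4:**
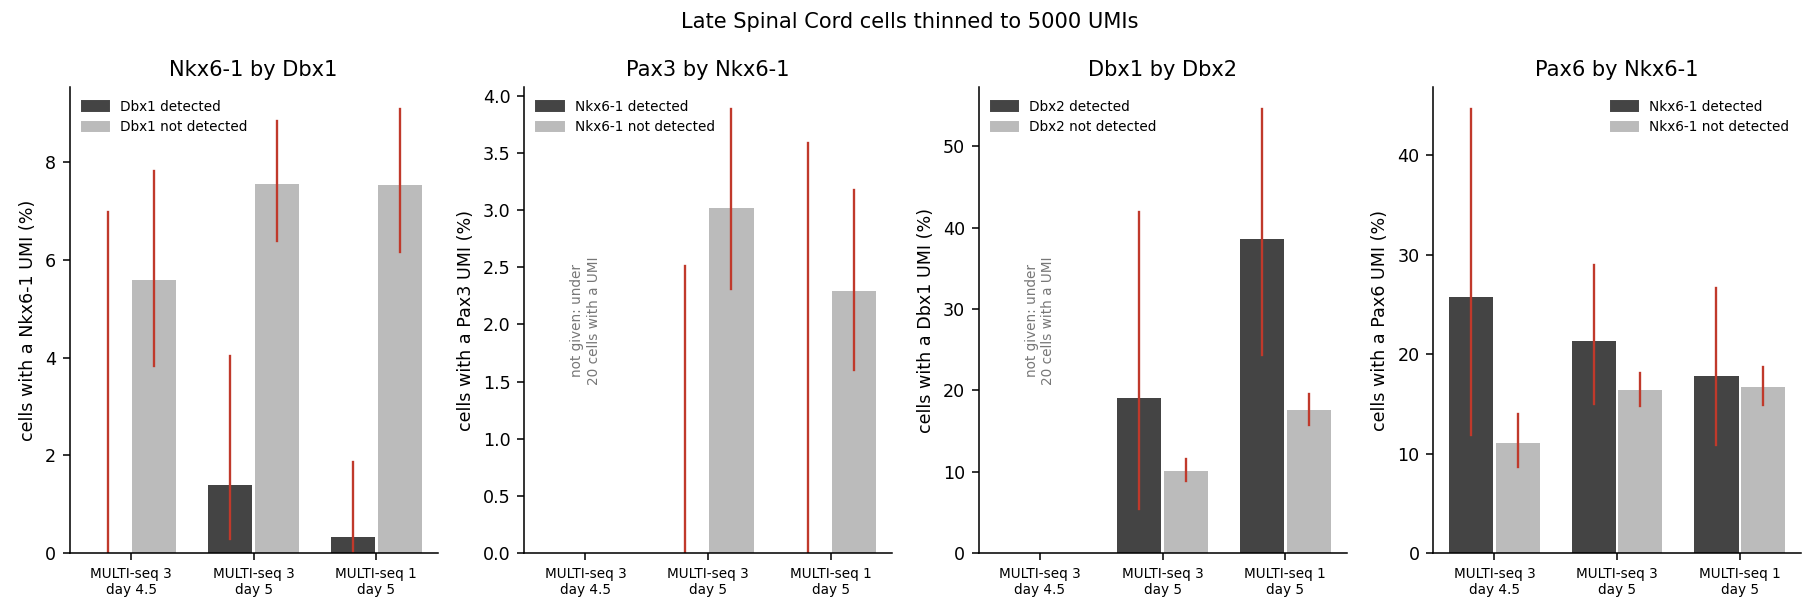
Share of Late Spinal Cord cells with a UMI of 1 member (vertical axes, percent) among cells with (dark bars) and without (light bars) a UMI of its partner, all cells thinned to 5000 UMIs, by experiment and day; red lines are exact 95% binomial intervals over pooled cells. Nkx6-1 is in 0.339% of cells with Dbx1 and 7.52% of the others in MULTI-seq 1, while Pax6 is in 17.8% and 16.7% of cells with and without Nkx6-1. Thinning was 1 random draw, and a day 4.5 pair with under 20 cells holding a UMI is marked as not given.

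Neurons, the smallest name, held 70 cells with 1188476 UMIs, in which each of the 10 members was detected. Tubb3, a neuronal tubulin, was in 68 cells, Elavl3 in 64 and Stmn2 in 63, which fits the label. Sox2, a neural progenitor marker, was in 29. Of the 70, 41 had a gastruloid call and 4 a doublet call. No gastruloid had 10 such cells, so the values are of the pooled cells with exact Poisson intervals and no test. Nkx6-1 stood at 117 CPM (98.3 to 138; in 26 cells), Pax3 at 74.9 CPM (60.1 to 92.2; in 22 cells), Irx5 at 32.0 CPM (22.6 to 43.9) and Olig2 at 27.8 CPM (19.1 to 39.0; in 13 cells). Irx3 had 12.6 CPM, Pax6 7.57 CPM and Dbx1 5.05 CPM. Of cells with Nkx6-1, 1 also held Pax3, 6 held Olig2 and 9 held Irx5, and 0 cells held both Pax3 and Olig2. Isl1, a motor and sensory neuron factor, was in 15 cells, and Mnx1, a motor neuron gene, in 0. Other listed motor neuron and interneuron markers were not counted in these cells.

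The neurons were also read in 2 sets. The 17 placed at day 3 of MULTI-seq 3, 7 of them with a gastruloid call, held Nkx6-1 at 151 CPM in 8 cells and Olig2 at 65.4 CPM in 8 cells, with Pax3 at 0. A single cell gave 24 of the 53 Nkx6-1 UMIs, and a single cell 11 of the 23 Olig2 UMIs. The 53 others, from other days and experiments, held Pax3 at 106 CPM in 22 cells, Nkx6-1 at 103 CPM in 18 and Olig2 at 12 CPM in 5. Among the cells with a gastruloid call at day 3 of MULTI-seq 3, 2 carried the Late Spinal Cord name. The 2 sets of neurons differ in both day and experiment, were chosen from the values and were not tested.

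Relations across gastruloids were computed within neural names only, where at least 12 gastruloids had 25 cells or more. This left Early Spinal Cord and the 3 pairs among Irx3, Irx5 and Msx1. In Early Spinal Cord of MULTI-seq 1 at day 5, over 20 gastruloids of at least 25 cells, Pearson's r of log2(CPM + 1) was 0.71 (permutation p = 0.00013, adjusted p = 0.00234 over 18 relations) and Spearman's rho was 0.71 (permutation p = 0.00085, adjusted p = 0.0153). With the 2 gastruloids that had the most extreme Irx3 left out, r was 0.75. In MULTI-seq 3 at day 5 r was 0.61 over 14 gastruloids (permutation p = 0.0187, adjusted p = 0.0843), 0.61 again with the 2 extreme ones left out, and rho was 0.50 (permutation test, adjusted p = 0.267). On the CPM scale and with at least 50 cells per gastruloid, that r passed, at 0.70 and 0.71. At day 4.5 of MULTI-seq 3 the gastruloids formed separate clusters and no pooled r is given, although it also passed correction while rho did not. Irx3 against Msx1 in MULTI-seq 1 gave r of -0.53 (permutation test, adjusted p = 0.0843). No relation with the share of Notochord cells in the gastruloid passed.

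**Figure D5:**
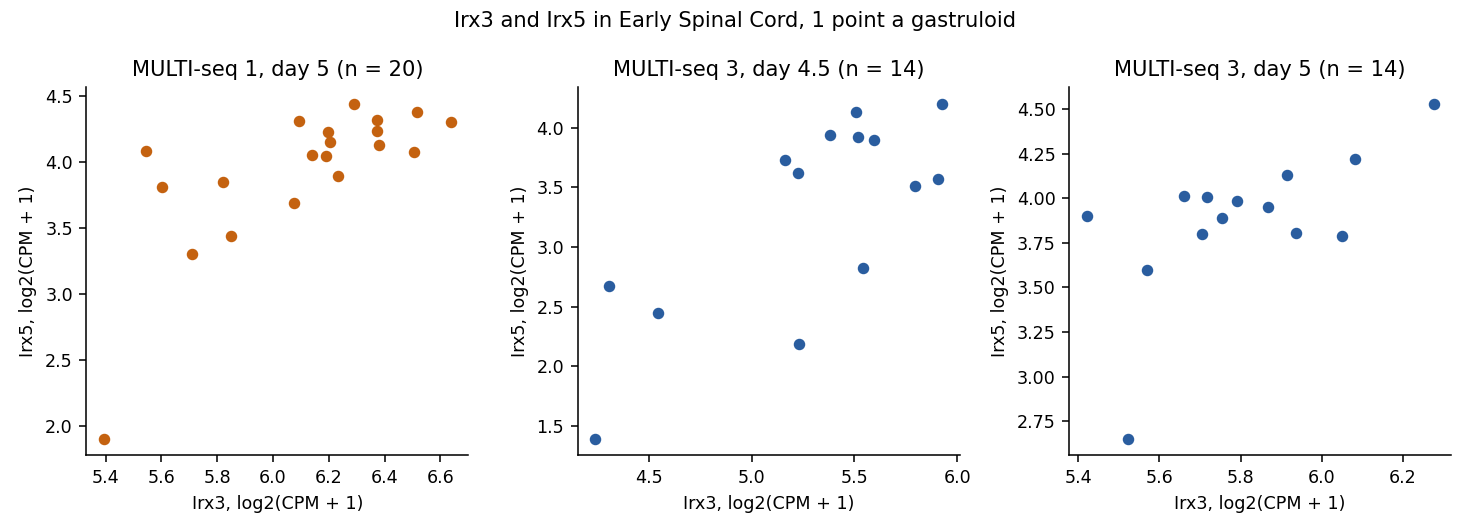
Irx5 (vertical axis) against Irx3 (horizontal axis), both as log2(CPM + 1), in Early Spinal Cord, 1 point per gastruloid with at least 25 cells, by experiment and day. Points of MULTI-seq 1 at day 5 lie along a rising line (r = 0.71, n = 20), those of MULTI-seq 3 at day 5 with a lower r (r = 0.61, n = 14).

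The pair also met in single Early Spinal Cord cells. After thinning, 65 of 161 cells with Irx5 held Irx3 in MULTI-seq 1 (40.4%) against 24.9% of the others, higher in 13 gastruloids and lower in 2. In MULTI-seq 3 at day 5 it was 45 of 127 (35.4%) against 22.1%, higher in 8 and lower in 2. At day 4.5 the groups differed, with 9 of 30 (30%) against 18.0% in MULTI-seq 2 and 10 of 51 (19.6%) against 19.8% in MULTI-seq 3. By gastruloid, the thinned share in that last group was higher in 1 and lower in 5. Without thinning, that group gave 84.5% against 59.4%, higher in 13 gastruloids and lower in 0. Depth was not made equal in that count, so it does not show an excess at equal depth. The thinned counts are few and do not show that an excess was absent. In Late Spinal Cord at day 5 the shares were 53.9% against 50.3% and 45.4% against 47.2%. On chromosome 8 the genes lie 556 kb apart, Irx3 at chr8:91798525-91802067 on the minus strand and Irx5 at chr8:92357625-92376286 on the plus strand (GENCODE vM21, GRCm38). The sources used here do not give whether counting used strand, so reads of Irx3 and of its antisense gene Irx3os, or of Pax6 and Pax6os1, may not be separated.

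The genes most like each member were found by Pearson's r of log2(CPM + 1) over 87 groups of experiment, day and cluster name, among 10722 genes, as a description of groups that share gastruloids and lanes. For Irx5 these were Crnde (0.89), a transcript that starts 1.51 kb from Irx5 on the opposite strand, Irx3 (0.80) and Irx1 (0.79), and for Irx3 they were Irx5 (0.80), Crnde (0.76) and Irx1 (0.68). For Dbx1 they were Fam181a (0.94), C130026L21Rik (0.92) and Sox1ot (0.91), and for Pax6 C130026L21Rik (0.80), Ednrb (0.79) and Gm32061 (0.79). Pax3 was most like Nr2f2 (0.87), Mn1 (0.86) and Rnf122 (0.85), Msx1 like Pcdh7 (0.77), Plekha2 (0.70) and Tns3 (0.69), Pax7 like Mapk10 (0.64), Wnt7b (0.63) and Adgrl3 (0.63), and Nkx6-1 like Vegfa (0.60), Cdkn1c (0.59) and Tmem108 (0.58). Neurons are not among these groups, and Dbx2 and Olig2, which reached 10 CPM in none of the 87, were not compared. Between members the highest r after Irx3 and Irx5 was that of Pax6 and Dbx1 (0.77), and the lowest was that of Pax3 and Msx1 (-0.63).

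The authors also mapped each cell to a type of an embryo reference. Pax3 was highest in cells mapped to Dermomyotome, at 143 CPM over 2326 cells, and stood at 89.7 CPM in Dorsal hindbrain progenitors, a type made up to 71.4% of Late Neurectoderm cells. Pax7 had its highest level in that same type, at 15.8 CPM. Cells mapped to Dorsal spinal cord progenitors, 90.7% of them Late Spinal Cord, held Irx3 at 119 CPM, Dbx1 at 40.2 CPM and Nkx6-1 at 18.4 CPM, so ventral and intermediate members were present under that dorsal label. Dbx1 was highest in cells mapped to Optic vesicle, at 55.1 CPM over 141 cells of which 85.8% were Late Spinal Cord. Most of those, 107 cells, came from MULTI-seq 1 and 7 from day 5 of MULTI-seq 3, and Dbx1 levels differed between these experiments, so this rank over pooled cells is not one of types alone. Pax6 stood at 78.9 CPM in Ventral hindbrain progenitors. Msx1 was highest in the mesoderm-biased neuromesodermal type, at 45.4 CPM, again over pooled experiments that differed in Msx1 and in the share of this type (3.32% of day 5 Early Spinal Cord cells in MULTI-seq 1 and 1.07% in MULTI-seq 3).

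The rest of the pathway was followed with 30 other dorsoventral, Hedgehog and BMP related genes. Sonic hedgehog was almost undetected in the spinal cord names, with Shh at 0.0806 CPM in Early and 0.0492 CPM in Late Spinal Cord at day 5 of MULTI-seq 3, while Ptch1, the Hedgehog receptor and a target of the pathway, stood at 46.3 ± 28.6 CPM and 35.1 ± 9.29 CPM. The roof plate list (Lmx1a, Gdf7, Wnt1 and Rspo1) summed to 2.00 to 5.73 CPM in Late Spinal Cord of MULTI-seq 3 and to 0 to 32.8 CPM in that of MULTI-seq 1, where Lmx1a, Gdf7 and Wnt1 were at 0. The floor plate list summed to 20.1 to 32.1 CPM and 3.76 to 54.7 CPM. Neural crest markers, which can accompany Pax3 and Msx1, summed to 4.82 to 8.82 CPM and 5.62 to 14.9 CPM, with Sox10, Foxd3 and Tfap2b at 0 in MULTI-seq 1. The upper ends of these ranges in MULTI-seq 1 can be a few UMIs, since 1 UMI was worth up to 10.9 CPM in its smallest gastruloid, and the medians there were 4.23 CPM for the roof plate and 39.2 CPM for the floor plate list. The somite list summed to 8.30 to 17.2 CPM and 18.5 to 43.7 CPM (median 23.9 CPM) in those Late Spinal Cord groups, and its part in the Pax3 values there was not tested.

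From day 4.5 to day 5 in Early Spinal Cord 3 of the 8 listed genes with enough counts changed, where 12.4% of all genes did: Gli2, a transducer of Hedgehog signalling, fell by 0.29 on the log2 scale (adjusted p = 0.0328), Gbx2 fell by 0.17 (adjusted p = 0.0436) and Sp8 rose by 0.22 (adjusted p = 0.0193), all by edgeR's quasi-likelihood test. In Late Spinal Cord 2 of 9 changed, against 7.79% of all genes. Nkx6-2, the relative of Nkx6-1, went from 6.98 ± 3.66 to 3.06 ± 2.55 CPM (log2 fold change -1.32, adjusted p = 0.0179), and Gli2 fell by 0.28 (adjusted p = 0.0486). Gli3, which acts mainly as a repressor in the pathway, fell by 0.64 in Somites (adjusted p = 0.049, 1 of 2 tested, 3.6% of all genes) and by 0.41 in Mature Somites (adjusted p = 0.000215, 1 of 8 tested, a share below the 14% of all genes), where 16 of 16 gastruloids lay below the earlier median.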

How the data were processed

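Single-cell 3′ RNA was read with 10x v3.1 chemistry. Per the submitters' processing notes and file headers, the authors made UMI counts per gene and cell with Cell Ranger 6.0.0 on mm10 and used Seurat; the sources used here do not give the annotation or strand setting. Cells, cluster names, doublet calls, gastruloid calls and days come from the authors' deposited table, and 9 of its cells without a barcode in the matrices were left out. Cells with a doublet call or no gastruloid call enter no value by gastruloid. The 10 members and all gene lists were chosen with earlier results of these data known.

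The deposited counts were summed per gastruloid and name over lanes (at least 10 cells) and tested with edgeR 4.0.16 (quasi-likelihood, TMM, filterByExpr, Benjamini-Hochberg over all genes, at least 6 gastruloids per group). Permutation tests used scipy 1.17.1. The edgeR step was checked on simulated counts for 1 comparison (day 5 against day 4.5, Early Spinal Cord). Alternatives were DESeq2 1.42.0, other size factors, no filter, at least 25 cells, each lane left out, and 3000 UMIs or no thinning. Lanes without gastruloid calls entered no test. All members are named; other genes are named where called or among the 3 most alike. Sequences are from RefSeq (GRCm38.p6). Gastruloids are separate aggregates of 1 cell line, so p-values measure the spread between aggregates.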

Additional observations from a re-analysis of the deposited data

Results flagged for a closer look

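Of 49 groups of 4 to 10 gastruloids with a mean of at least 10 CPM, 7 held a gastruloid set apart by Dixon's 95% criterion. Its chance rate of about 1 in 20 groups holds for normally distributed values. CPM from few counts need not be so distributed, so the 7 are not read as an excess. For Irx3 the highest gastruloid of Early Neurectoderm at day 3.5 of MULTI-seq 3 had 26.1 CPM (the next 13.1, n = 9). The highest of Early Spinal Cord at that day had 32.6 CPM (the next 18.2, n = 10) on 15 cells. In Late Spinal Cord at day 4.5 of MULTI-seq 3 the lowest Irx3 gastruloid had 101 CPM (the next 119, n = 7), and in Somites at that day the highest had 43.4 CPM (the next 25.5, n = 10) on 11 cells.

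Nkx6-1 reached 24.2 CPM in 1 gastruloid of Somites at day 4.5 of MULTI-seq 3 (the next 10.8, n = 10), which rests on 7 UMIs in 10 cells. Pax3 reached 91.5 CPM in 1 of 4 gastruloids of Somites at day 4 of MULTI-seq 2 (the next 42.4), on 15 cells. Pax6 reached 55.0 CPM in 1 gastruloid of Late Spinal Cord at day 4.5 of MULTI-seq 3 (the next 25.3, n = 7), on 273 UMIs in 141 cells.

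The change from day 4.5 to day 5 differed between Early Spinal Cord and Mature Somites by 1.62 for Irx3 (permutation test, adjusted p = 0.00019) and by 1.498 for Irx5 (permutation test, adjusted p = 0.0313), in log2(CPM + 1).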

How the results depend on the processing

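Of 34 tested member differences 11 were called, and 6 of these were called under every alternative run. Lost were Dbx1 in Late Spinal Cord between MULTI-seq 3 and 1 (DESeq2, -0.43), Irx5 there (DESeq2, -0.24, and without lane 3 of MULTI-seq 1, -0.19, adjusted p = 0.0894), Irx3 in Early Spinal Cord by day (without lane B, 0.35), Msx1 in Late Spinal Cord by day (without lane A, -1.04) and Pax3 in Somites by day (DESeq2, -0.66, and without lane A, -0.62). The cause was not tested. The counts of called members that follow are given without the share of all genes called in the same run. They show only that calls moved with the setting and are not results about the members. Without the low-count filter more members were fitted. Without the low-count filter the members called numbered 2 in Early and 2 in Late Spinal Cord by day, 2, 1 and 2 in Early Spinal Cord, Somites and Mature Somites of MULTI-seq 3 against 1, and 1 in Early Spinal Cord of MULTI-seq 3 against 2. By day, Early Spinal Cord gave 0 without lane B and 2 without lane C, Late Spinal Cord 0 without lane A and 2 without lane B, and Somites 0 with DESeq2 and 0 without lane A; Mature Somites of MULTI-seq 3 against 2 gave 2 without lane C. Uncalled differences near 0 changed sign: Irx3 to -0.017 and Msx1 to -0.061 in Early Spinal Cord of MULTI-seq 3 against 2 with a lane left out, and, with at least 25 cells, the differences between names for Irx5 (-0.14) and Nkx6-1 (0.012) of MULTI-seq 3 against 1. The relation of Irx3 and Irx5 in MULTI-seq 3 at day 5 passed at r of 0.70 (CPM scale) and 0.71 (50 cells).

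Shares of cells depend on depth. Without thinning, an alternative chosen after seeing the data, Nkx6-1 was in 3.72%, 12.3% and 13.3% of cells with Dbx1 (MULTI-seq 1, MULTI-seq 3 days 4.5 and 5), Pax3 in 4.97% of cells with Nkx6-1, Dbx1 in 57.0% and 56.3% of cells with Dbx2 (29.3% and 31.9% of the others), and Irx3 in 68.4%, 73.9%, 84.5% and 82.9% of Early Spinal Cord cells with Irx5 (43.3%, 49.6%, 59.4% and 63.8% of the others). At 3000 UMIs Dbx1 was in 22.7% of cells with Dbx2 in MULTI-seq 1 (13.4% of the others). Irx3 was in 21.7% and 15.2% of cells with Irx5 at day 5 (16.0% and 13.9% of the others), so the excess shrank, as did the contrast of Dbx1 and Nkx6-1. Each depth was 1 random draw, so these shifts mix depth with the noise of the draw. With at least 25 cells, Late Neurectoderm held too few gastruloids, and the highest name at day 5 became Late Spinal Cord for Pax6 and Irx5 and Somites for Pax7. No paired analysis was possible because each gastruloid has 1 day and 1 experiment, and a barcode number that recurs marks a reagent, not a shared source. Below about 1 CPM, as for Olig2 and Dbx2 in Early Spinal Cord of MULTI-seq 1 at day 5, depth limits what a gastruloid shows.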

Other observations

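The lanes of MULTI-seq 2 without gastruloid calls, which mixed days 4 and 4.5 and entered no comparison, also held the members. Their Late Spinal Cord cells had Irx3 at 125 and 123 CPM in the 2 lanes, Dbx1 at 22.9 and 25.1 CPM, and Pax6 at 29.2 and 27.1 CPM. These Dbx1 and Pax6 values lay above the day 4.5 means of the called MULTI-seq 2 gastruloids given above, a difference that was not tested. Pax3 in their Mature Somites stood at 106 and 107 CPM. In Late Neurectoderm Dbx1 was at 11 CPM in 1 lane and 0.348 CPM in the other. The day 4 gastruloids pooled without marking held Pax3 at 115 CPM and Irx5 at 73.5 CPM in Mature Somites, and Msx1 at 45.5 CPM in Early Spinal Cord.

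Irx3 and Irx5 were also measured in cells of neither lineage. Mature Endoderm of MULTI-seq 1 at day 5 held Irx3 at 59.5 ± 41.6 CPM and Irx5 at 73.7 ± 39.5 CPM over 6 gastruloids. In Head Mesoderm at day 4 of MULTI-seq 3 Pax3 stood at 67.5 ± 9.31 CPM over 7 gastruloids, and Late Anterior PSM, a name for presomitic mesoderm cells, held Pax3 at 57.1 ± 15 CPM over 10.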
